A study of Mus musculus with 6 samples.

Results

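Cholesterol is built from acetyl-CoA through the mevalonate pathway, and 8 mouse genes of its synthesis and sterol control were followed here in fetal hepatocytes with and without Cnot3. The genes are the enzymes Hmgcs1, Idi1, Fdft1, Sqle, Lss and Cyp51, the sterol sensor Insig1 and the cholesterol carrier Stard4. They were listed by symbol, with earlier results of these data known, and each was read from its brightest probe set that names no other gene. All 8 were among the 16499 genes above the low-intensity limit, of 18193 genes with a probe set of their own, and the limit was the 20th percentile of intensity, passed on at least 1 array.

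Total RNA from cultured fetal hepatocytes was measured on 6 mouse expression arrays, 1 for each genotype and time. The cells came from livers of E16.5 embryos and were grown with oncostatin M and dexamethasone, in both genotypes, before actinomycin D (ActD), a drug that blocks transcription, was given for 0, 6 or 12 h. Cnot3KO embryos carry floxed Cnot3 alleles and Cre recombinase under the albumin promoter, so deletion is driven only in cells of the hepatic lineage. Control embryos are labelled wild type, and the methods also count as controls mice with floxed Cnot3 but no Cre, and mice with Cre and at most 1 floxed allele. The sources used here do not give how many embryos stand behind an array. With 1 array per genotype and time the p-values below rest on spread over times, partly pooled over genes, rather than between embryos.

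Cnot3, a subunit of the Cnot deadenylase complex, which removes poly(A) tails and opens mRNAs to decay, read 174, 174 and 146 in Cnot3KO cells at 0, 6 and 12 h, against 296, 214 and 158 in control cells. It was 1.70-fold lower in Cnot3KO cells at 0 h and 1.08-fold lower at 12 h, and the genotype difference did not pass limma (adjusted p = 0.182). The sources used here do not place its probe set relative to the deleted part. The median intensity of the arrays lay between 69.7 and 72.4. Hepatocyte markers summed to 188250 to 198822 in Cnot3KO cells and 189691 to 209265 in control cells, with 10 of 12 listed markers measured.

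Hepatocytes make cholesterol for membranes, bile acids and lipoproteins. Low sterol in the endoplasmic reticulum lets SCAP carry the transcription factor SREBP to the Golgi, where it is cut and released to the nucleus, and Insig proteins hold the pair back when sterol is plentiful. The synthesis enzymes share SREBP as an activator, so their mRNAs are known to be made together, while the rate at which each mRNA is lost is a separate property that blocking transcription exposes.

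Promoter sequences are given for 3 genes, 1 from each set of genes described below under ActD, because common sterol control is why these genes form a group. They come from RefSeq, build GRCm38.p6, and end at the base before the annotated start. Capitals mark matches, on either strand, to the sterol regulatory element CACNCCAC, the CCAAT box or the GC box with the letters GGGCGG, and a match on the other strand appears as its reverse complement. Hmgcs1 is chr13:119690101-119690350 on the plus strand, Insig1 is chr5:28071163-28071411 on the plus strand and Idi1 is chr13:8885517-8885605 on the plus strand.
Hmgcs1: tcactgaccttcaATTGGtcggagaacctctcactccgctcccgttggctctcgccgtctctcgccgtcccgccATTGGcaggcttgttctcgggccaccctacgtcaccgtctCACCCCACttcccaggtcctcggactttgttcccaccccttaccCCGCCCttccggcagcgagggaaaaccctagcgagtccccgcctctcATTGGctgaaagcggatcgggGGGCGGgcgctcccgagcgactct
Insig1: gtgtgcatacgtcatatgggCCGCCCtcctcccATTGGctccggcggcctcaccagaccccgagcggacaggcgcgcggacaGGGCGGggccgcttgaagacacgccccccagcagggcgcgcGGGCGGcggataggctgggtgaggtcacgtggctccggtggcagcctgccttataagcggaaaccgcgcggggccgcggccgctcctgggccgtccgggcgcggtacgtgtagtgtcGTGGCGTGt
Idi1: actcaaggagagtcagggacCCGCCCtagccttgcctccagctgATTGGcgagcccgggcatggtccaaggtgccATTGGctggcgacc

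Of the 8 genes, 5 were matched in the promoter table, which are Hmgcs1, Idi1, Lss, Cyp51 and Insig1. In the 250 bases before the start, CACNCCAC was found in 2 of the 5, Hmgcs1 and Insig1, against 5.29% of all 32851 promoters of that length. In Hmgcs1 it began 136 bases before the start, and in Insig1 it lay on the reverse strand 9 bases before it. CCAAT was present in 5 of 5 and in 33.8% of all promoters, and GGGCGG in 5 of 5 and in 32.7%. No match overlapped another. These are letter matches and not shown binding sites.

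Before ActD the genotypes were close for most of the group. The differences at 0 h ran between -0.56 (Idi1) and 0.13 (Fdft1) on the log2 scale, Cnot3KO minus control. Their median was -0.13, against 0.033 over all 16499 genes. With the probe sets used, none passed 1.5-fold higher, against 6.87% of 16110 genes, and none passed 1.5-fold lower, against 2.99%. Idi1 came nearest, at 1.47-fold lower in Cnot3KO cells. The second sets of Idi1 and Cyp51, above every array median, were 2.25-fold and 1.52-fold lower. With 1 array per genotype no test was possible at a single time. The standard deviation (SD) between probe sets of 1 gene was 0.24 over 4117 genes with a second set. Such sets share the RNA and the array, so this SD covers probe noise and leaves out the spread between cultures.

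After 12 h of ActD the group differed in how much mRNA was left, as read from the probe sets used. The mRNAs of Hmgcs1, Fdft1 and Sqle were largely lost in control cells and mostly retained in Cnot3KO cells. Those of Insig1 and Stard4 had fallen by a similar share in both genotypes or somewhat more in control cells, although the other sets of Stard4 gave a wide gap between the genotypes, and those of Idi1, Lss and Cyp51 were near their starting level in control cells.

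**Figure D1:**
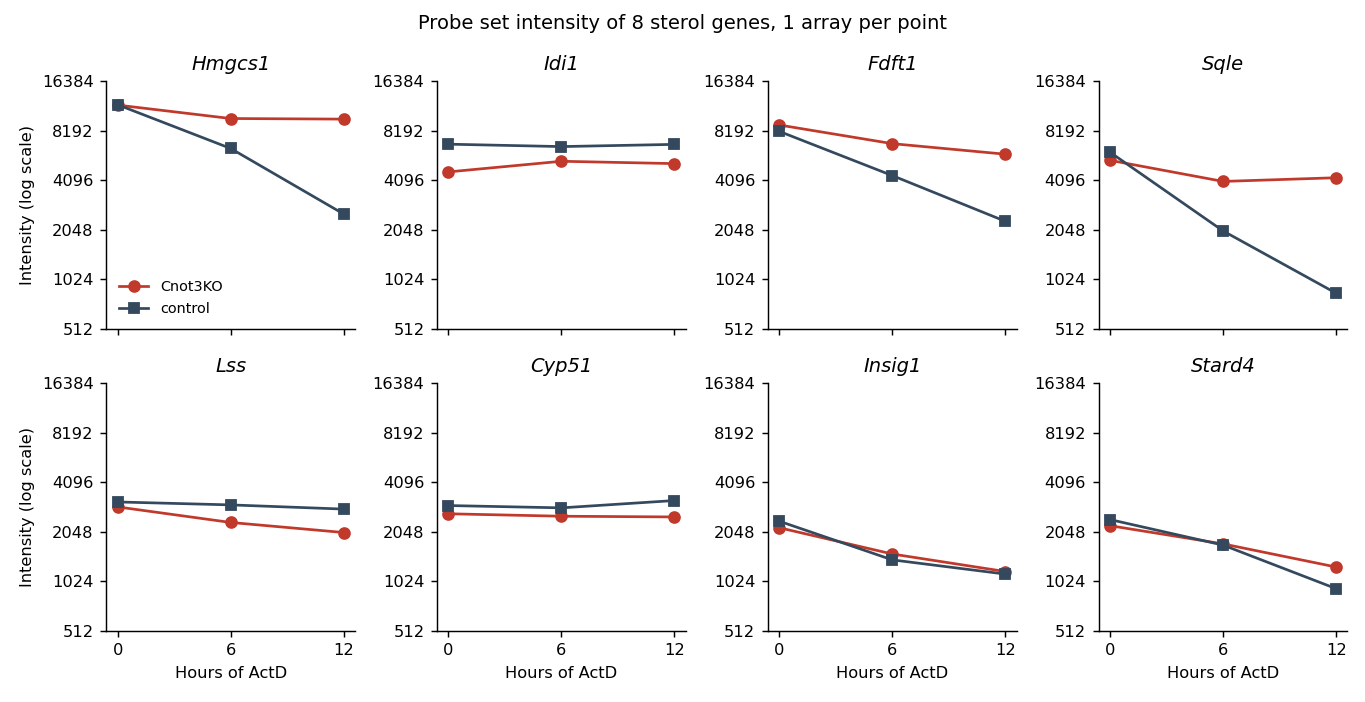
Intensity (vertical log axis) of the 8 genes against hours of ActD, with 1 array per point, Cnot3KO as red circles and control as blue squares. For Hmgcs1, Fdft1 and Sqle the genotypes start together and stand 3.77-fold, 2.56-fold and 5.03-fold apart at 12 h, while the lines of Insig1 stay together. Levels of different genes are not comparable across panels.

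Hmgcs1 makes HMG-CoA at the entry to the mevalonate pathway. Its intensity was 11704, 9697 and 9617 in Cnot3KO cells at 0, 6 and 12 h, against 11761, 6380 and 2549 in control cells. The arrays of both genotypes were alike at 0 h, and the later control arrays were below every Cnot3KO array. Of the 0 h level 82.2% was left at 12 h in Cnot3KO cells and 21.7% in control cells. Read as a half-life relative to all mRNAs of the same array, that is 42.3 h in Cnot3KO cells and 5.44 h in control cells. A half-life above 12 h, here and below, is extrapolated past the last array and is only a rough value. The change over 12 h differed by 1.92 ± 0.32 (log2, SE, 6 arrays), which did not pass limma over all genes (adjusted p = 0.179). The other 3 Hmgcs1 probe sets above every array median had differences down to 1.52, with 80.7 to 86.0% left in Cnot3KO cells and 21.7 to 28.5% in control cells over the 4 sets. The dim set left over kept 48.5% in Cnot3KO cells and 22.9% in control cells.

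Fdft1, squalene synthase, joins farnesyl diphosphate units in the first step that belongs to sterols alone. It read 8857, 6822 and 5886 in Cnot3KO cells, against 8101, 4364 and 2303 in control cells. The Cnot3KO array was the higher at each time, and the gap widened with hours of ActD. At 12 h 66.5% was left in Cnot3KO cells and 28.4% in control cells, with half-lives of 20.4 h in Cnot3KO cells and 6.61 h in control cells. The difference in change was 1.23 ± 0.28 (limma, adjusted p = 0.182). A second bright probe set gave 1.29. A pair of dim sets, below some array medians, were lower in Cnot3KO cells at 0 and 12 h, and with the mean of all 4 sets the difference in change was 0.46.

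Sqle, squalene epoxidase, catalyses a rate-limiting step, the oxidation of squalene. Its only probe set read 5401, 4021 and 4235 in Cnot3KO cells, against 6045, 2011 and 841 in control cells. The level was slightly lower in Cnot3KO cells at 0 h and above the control at both later times. At 12 h 78.4% was left in Cnot3KO cells and 13.9% in control cells, with half-lives of 34.2 h in Cnot3KO cells and 4.22 h in control cells. The difference in change, 2.49 ± 0.34, ranked 68 of 16499 genes (limma, adjusted p = 0.179). Hmgcs1 ranked 374 and Fdft1 ranked 1461 by the same measure.

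Insig1 and Stard4 fell with time. Insig1, whose protein retains SCAP and SREBP in the endoplasmic reticulum, read 2165, 1499 and 1173 in Cnot3KO cells, against 2372, 1381 and 1132 in control cells. The genotypes crossed and lay within 0.13 of each other on the log2 scale at each time. Its fall over 12 h, averaged over genotypes, was -0.98 ± 0.17 (limma, adjusted p = 0.0387), with 54.2% left in Cnot3KO cells and 47.7% in control cells. Without the 6 h arrays 0 of 16426 genes passed for this change, Insig1 included (adjusted p = 0.174). The difference in change was 0.18 ± 0.33 (adjusted p = 0.790).

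Stard4 encodes a soluble protein that carries cholesterol between membranes. It read 2228, 1727 and 1249 in Cnot3KO cells, against 2427, 1698 and 923 in control cells. Its fall averaged over genotypes was -1.11 ± 0.20 (limma, adjusted p = 0.0407), which did not pass without the 6 h arrays (0.165) or with the second probe set (-1.67, adjusted p = 0.0903). With this set 56.1% was left in Cnot3KO cells and 38.0% in control cells, and the difference in change was 0.56 ± 0.30 (adjusted p = 0.370). The other 2 sets of Stard4 split the genotypes much further. One read 2122, 1682 and 1545 in Cnot3KO cells and 2013, 671 and 273 in control cells, a difference in change of 2.42. The other read 1594, 1092 and 942 in Cnot3KO cells and 1794, 627 and 282 in control cells, a difference of 1.91. All 3 sets were above every array median, so the size of the Stard4 difference depends on the set and spans 0.56 to 2.42.

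The remaining 3 enzymes were not lost in control cells. Idi1, which interconverts the isoprene building blocks of the pathway, read 4595, 5331 and 5160 in Cnot3KO cells, against 6771, 6548 and 6753 in control cells. All Cnot3KO arrays were below all control arrays. The level was 1.47-fold lower in Cnot3KO cells at 0 h, and the genotype difference over the 3 times was -0.41 ± 0.14 (limma, adjusted p = 0.110). The second Idi1 set read 1278, 1563 and 1549 in Cnot3KO cells, against 2881, 2178 and 3782 in control cells, a difference over the times of -0.98 that passed in the fit on second probe sets (limma, adjusted p = 0.0371), where 1490 of 15636 genes passed.

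Lss, which closes oxidosqualene into lanosterol, read 2898, 2331 and 2025 in Cnot3KO cells, against 3106, 2981 and 2811 in control cells. At 12 h 69.9% was left in Cnot3KO cells and 90.5% in control cells, the opposite order to Hmgcs1, Fdft1 and Sqle. The other Lss sets kept 40.3% and 84.6% in Cnot3KO cells, against 119% and 161% in control cells, so the size depends on the set while the order does not. The difference in change was -0.37 ± 0.28 (limma, adjusted p = 0.501), and over the 3 Lss sets it lay between -1.57 and -0.37. Cyp51, which demethylates lanosterol, read 2632, 2544 and 2518 in Cnot3KO cells, against 2954, 2860 and 3168 in control cells. Every Cnot3KO array was below every control array. Its difference in change was -0.16 ± 0.28 (adjusted p = 0.781), and between -0.77 and -0.16 over its 3 sets. The genotype difference over the times was -0.22 ± 0.14 (limma, adjusted p = 0.302). In the fit on second probe sets it was -0.73 and passed narrowly (adjusted p = 0.049997), and that set was 1.52-fold lower in Cnot3KO cells at 0 h.

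**Figure D2:**
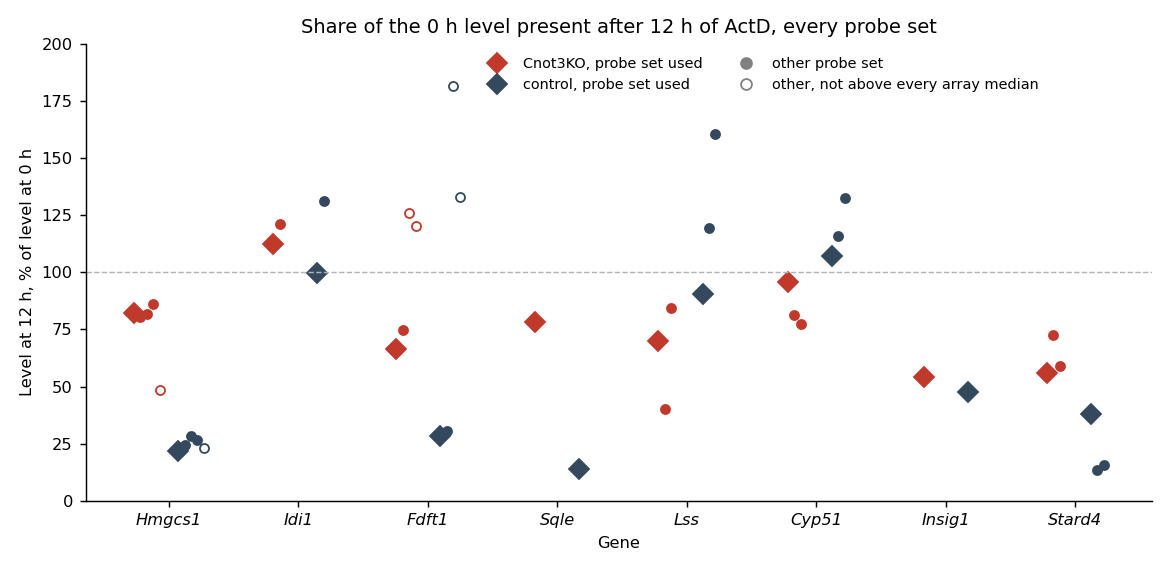
Level at 12 h of ActD as a percentage of the level at 0 h (vertical axis) for every probe set of the 8 genes, Cnot3KO in red to the left of control in blue. Diamonds are the probe sets used and open circles are sets not above every array median. The used sets of Hmgcs1, Fdft1 and Sqle keep 66.5 to 82.2% in Cnot3KO cells and 13.9 to 28.4% in control cells.

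Counted over the group, 0 of 8 genes lost more than 2-fold in Cnot3KO cells, against 4.38% of all genes, and 5 of 8 did in control cells, against 15.1%. The 5 were Hmgcs1, Fdft1, Sqle, Insig1 and Stard4. The half-life was over 2-fold longer in Cnot3KO cells, from a control half-life of at most 12 h, for 3 of 8 genes and 11.4% of all genes. At 12 h 3 of 8 were over 1.5-fold higher in Cnot3KO cells, where 27.7% of all 16329 genes were, and 0 of 8 were over 1.5-fold lower, where 13.9% were. The count at 12 h is therefore not far above that of the arrays as a whole. All these counts use 1 probe set per gene, and other sets would change them in both directions. The other 2 sets of Stard4 were higher in Cnot3KO cells at 12 h by 2.50 and 1.74 (log2). The second Idi1 set was 2.44-fold lower in Cnot3KO cells at 12 h. The other Lss sets were 3.68-fold and 1.86-fold lower there, and the other Cyp51 sets 2.17-fold and 2.11-fold lower. The first of these Lss sets kept 40.3% in Cnot3KO cells, a loss of more than 2-fold.

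The limma counts were smaller. For genotype over the 3 times 0 of 8 genes passed in either direction, against 0.703% of genes higher and 0.285% lower, and at an unadjusted p of 0.05 Fdft1 was higher and Idi1 lower, where 3700 of 16499 genes were higher and 1817 lower. Without the 0 h arrays Hmgcs1, Fdft1 and Sqle passed as higher, in a fit where 5809 of 16451 genes passed in 1 direction or the other. For 12 h minus 0 h 0 of 8 passed as higher, against 2.24%, and 2 of 8 as lower (Insig1 and Stard4), against 4.53%. The averaged falls of Sqle (-1.60, adjusted p = 0.126), Hmgcs1 (-1.24, adjusted p = 0.135) and Fdft1 (-1.20, adjusted p = 0.0726) were larger and did not pass. That model has no interaction, so a gap between genotypes that widens with time adds to its residual spread. For the difference in change 0 of 8 passed, and 0% of all genes passed as higher and 0% as lower, the lowest adjusted p of any gene being 0.179. At an unadjusted p of 0.05 in that test 3 of 8 were higher in Cnot3KO cells (Hmgcs1, Fdft1 and Sqle), against 12.8% of all genes, and 0 of 8 lower. The models on all arrays have 2 residual degrees of freedom, and the fit without the 0 h arrays has fewer.

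Across the 6 arrays Hmgcs1 and Sqle followed each other with a Pearson r of 0.99, Hmgcs1 and Fdft1 with 0.98, and Idi1 and Cyp51 with 0.85. With the mean profile of the 8 genes r was between 0.89 and 0.96 for Hmgcs1, Fdft1, Sqle, Insig1 and Stard4, and was 0.18 for Lss, -0.36 for Idi1 and -0.43 for Cyp51. The genes outside the group most like that mean, among 12812 genes above an array median, were Xpo6 (r = 0.999), Fabp5 (0.998), Nfatc3 (0.998), Rspry1 (0.997) and Tbc1d24 (0.997). Pearson r does not measure the size of a change, and Fabp5 kept 94.3% in Cnot3KO cells and 86.2% in control cells at 12 h. These correlations are descriptions over 6 arrays that share genotype and time, and many genes follow the same course.

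The 12 other cholesterol synthesis enzymes measured, of 15 listed, stayed closer to their starting level. The 8 genes and the 12 enzymes were divided with earlier results of these data known, so the contrast between them may restate that choice. None of the 12 lost more than 2-fold, where 4.38% of all genes did in Cnot3KO cells and 15.1% in control cells. In the limma tests 0 of 12 passed. Their median change at 12 h was -0.14 in Cnot3KO cells and -0.19 in control cells. The 8 genes had medians of -0.43 in Cnot3KO cells and -1.23 in control cells, and all genes had 0.076 in Cnot3KO cells and 0.155 in control cells. The median difference in change was -0.060 for the 12 enzymes, 0.37 for the 8 genes and -0.036 for all genes. Fdps, which makes farnesyl diphosphate and stands next to Fdft1 in the pathway, kept 72.3% in Cnot3KO cells and 75.1% in control cells, values chosen after they were seen.

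**Figure D3:**
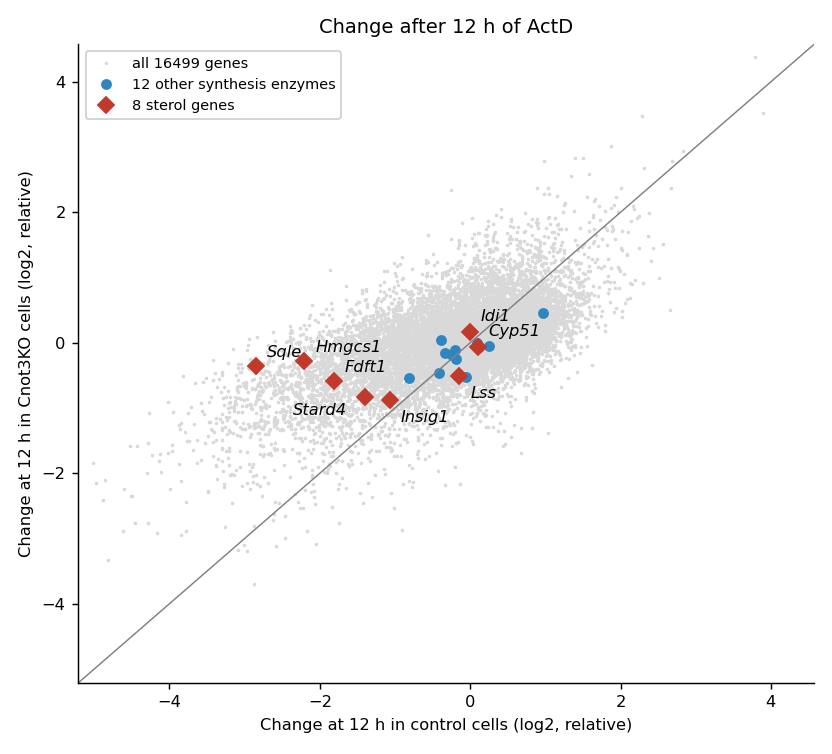
Change at 12 h in Cnot3KO cells (vertical axis, log2) against that in control cells (horizontal axis, log2), for all 16499 genes in grey, the 12 other cholesterol synthesis enzymes in blue and the 8 genes as red diamonds, with the line of equal change. Sqle, Hmgcs1 and Fdft1 lie far left of the 12 enzymes and above the line. The 8 genes and the 12 enzymes were divided with earlier results of these data known.

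Of the genes that sense sterol or process SREBP 11 of 15 listed were measured. Srebf2, which encodes the SREBP that drives sterol synthesis, read 1148, 675 and 537 in Cnot3KO cells, against 1152, 972 and 586 in control cells. It fell by 1.04 over 12 h on the log2 scale (limma, adjusted p = 0.044), the 1 gene of the 11 called, and its remaining share at 12 h was 46.8% in Cnot3KO cells and 50.9% in control cells. Insig2, the relative of Insig1, read 422, 557 and 687 in Cnot3KO cells, against 336, 474 and 514 in control cells, with higher values at later times in both. Srebf1, which encodes the SREBP more tied to fatty acid synthesis, read 2442, 1907 and 2022 in Cnot3KO cells, against 1831, 1174 and 816 in control cells. It was the 1 gene of the 11 whose half-life was over 2-fold longer in Cnot3KO cells, against 11.4% of all genes. Srebf1 was named after its values were seen, and 1 other gene of the list had a difference in change above 1.

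Of 17 listed genes of sterol uptake, transport and esterification 14 were measured and 1 passed a test. Abca1, the transporter that exports cholesterol to lipoproteins, read 6990, 2524 and 2312 in Cnot3KO cells, against 8275, 3426 and 2199 in control cells, and fell by 1.75 on the log2 scale over 12 h (limma, adjusted p = 0.019). It was lost to a similar share in both genotypes, with 33.1% left in Cnot3KO cells and 26.6% in control cells. Abcg1 and Osbp, named after their values were seen, were the 2 of these 14 with half-lives over 2-fold longer in Cnot3KO cells. Of all genes 11.4% had such half-lives, so this count is near that share. Among 8 of 9 listed genes of the isoprenoid branch outside sterols none passed a test. Pdss2, a subunit of the enzyme that makes the coenzyme Q tail, was past 1.5-fold higher at 0 h, with 634 in Cnot3KO cells and 422 in control cells.

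**Figure D4:**
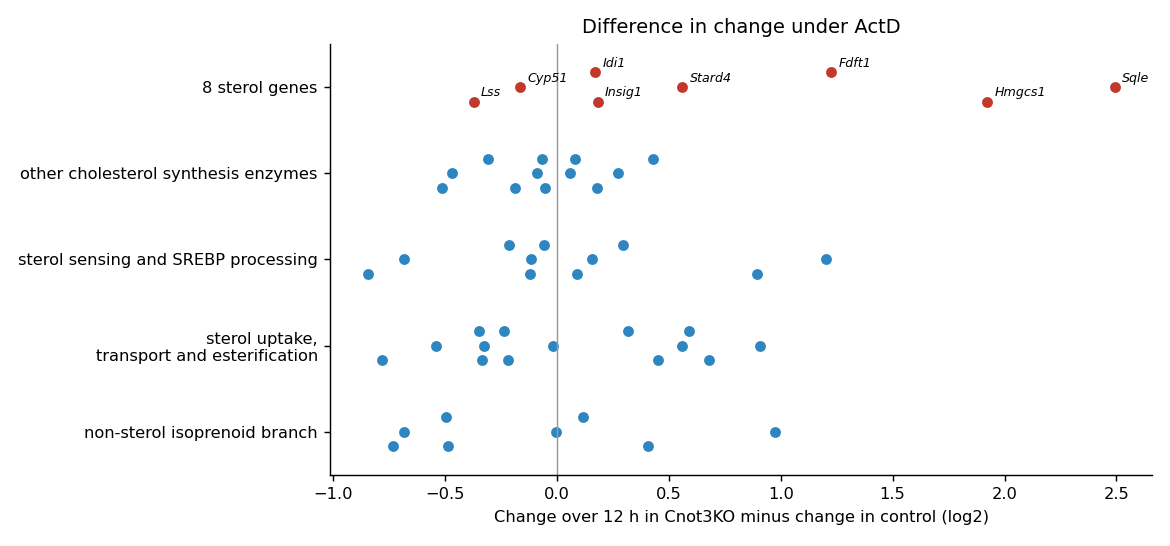
Change over 12 h in Cnot3KO minus change in control cells (horizontal axis, log2) for each measured gene, in rows by list, the 8 genes in red and labelled. Of the 8 genes, Sqle, Hmgcs1 and Fdft1 lie farthest right at 2.49, 1.92 and 1.23 with the probe sets used. The 12 other synthesis enzymes lie around 0, and the other 2 Stard4 sets, not drawn, gave 2.42 and 1.91.

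Summed marker levels of other cell types differed between the genotypes to unequal degrees, few single markers passed, and in bulk RNA fewer cells of a type and less RNA per cell cannot be told apart. Macrophage markers, 11 of 11 measured, summed to 9082 to 9170 in Cnot3KO cells and 11794 to 15703 in control cells, and 3 of the 11 (Vsig4, Mrc1 and Cd163) passed limma for genotype as lower. Stellate cell and fibroblast markers, 8 of 9 measured, summed to 8664 to 13779 in Cnot3KO cells and 17469 to 18663 in control cells, with 0 of 8 passing. Endothelial markers, 9 of 9, summed to 467 to 1121 in Cnot3KO cells and 685 to 1665 in control cells, ranges that overlap, and erythroid markers, 6 of 7, to 488 to 517 in Cnot3KO cells and 596 to 677 in control cells, with 0 passing in either list. Cholangiocyte markers, 5 of 7, summed to 31629 to 37851 in Cnot3KO cells and 18157 to 21818 in control cells, and 1 of the 5 (Cldn4) passed as higher. Over all genes 0.285% passed for genotype as lower and 0.703% as higher, and the lowest adjusted p of any gene was 0.0499 (limma). No gene passed without the filter, with the filter at the 50th percentile, with ribosomal protein genes as the centre or with an offset of 16. The marker sums are led by the brightest probe sets. The part of these cells in the sterol gene values was not tested.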

How the data were processed

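The 6 groups of 1 array each were taken from the sample labels. Per the labels the authors summarised probe sets with the Robust Multi-array Average (RMA, version not given in the sources used here), and the values they deposited are intensities on a linear scale, 45037 probe sets with 0 missing. Log2 was taken with no pseudocount. RMA equalises the arrays, so a change under ActD is relative to the other mRNAs and a loss shared by all cannot be seen. Arrays give no read depth, and their number limits the precision.

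Probe sets were named from the platform annotation, with RefSeq of GRCm38.p6 for names. Of them 34945 carried 1 symbol, 932 several and 9160 none. Each gene took its brightest set of its own, kept above the 20th percentile of an array on at least 1 array. Promoters came from RefSeq.

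Differences at 0 h and changes within a genotype have no test. limma 3.58.1 (R 4.3.3, lmFit and eBayes) was fitted over all 16499 genes on 6 arrays, with genotype and time as terms, or with genotype, hours and their interaction for the difference in change, and p-values were adjusted by Benjamini-Hochberg at 0.05. A half-life is a log-linear slope, counted as longer at over 2-fold and a control half-life of at most 12 h. The fits were tested on simulated data. Alternatives changed the filter, the probe set, the centring, the offset, and the times used.

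Named in full were the 8 genes, and beside them Srebf2 and Insig2, listed genes past a test or 1.5-fold at 0 h, and the 5 genes most like the mean profile. Members, lists and this rule were chosen with earlier results of these data known. Some listed genes were not analysed here.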

Additional observations from a re-analysis of the deposited data

Results flagged for a closer look

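Idi1 was singled out because its later arrays lay on opposite sides of the 0 h array in the genotypes. In Cnot3KO cells both later arrays (5331 and 5160) were above the 0 h array (4595), and in control cells both (6548 and 6753) were below it (6771). The difference in change over 12 h was 0.17 on the log2 scale, under the SD of 0.42 between probe sets of a gene, and did not pass limma (adjusted p = 0.779). The control level at 12 h was 99.7% of that at 0 h, hardly a change. With the second Idi1 probe set the difference was -0.12, and both genotypes were above their 0 h level at 12 h, at 121% in Cnot3KO cells and 131% in control cells, so the opposite order was not seen there.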

How the results depend on the processing

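The difference in change passed limma for 0 genes in every fit that could be tested (2377 to 3107 genes at an unadjusted p of 0.05), and without a time it is a value only. Without the 0 h or the 12 h arrays, that value comes from a 6 h interval and is scaled to 12 h. Hmgcs1 kept its direction between 1.22 and 2.62, Fdft1 between 0.46 and 1.42 and Sqle between 2.33 and 2.66. Of the 8 genes, the number over 1.5-fold apart at 0 h was 0, but 1 with averaged probe sets and 2 with the second set. The number passing for genotype was 0. It was 1 with the mean, where 1623 of 16317 genes passed, and 2 with the second set, where 1490 of 15636 passed. It was 3 without the 0 h arrays, where 5809 of 16451 genes passed, in a fit with fewer residual degrees of freedom. The 3 were Hmgcs1 (1.26, limma, adjusted p = 0.0013), Fdft1 (0.999, adjusted p = 0.0019) and Sqle (1.67, adjusted p = 0.00014). Over all genes the genotype count was 163, and 0 to 5809 under the alternatives. The number passing for 12 h minus 0 h was 2, where 1116 of 16499 genes passed. It was 1 with the second set, where 1366 of 15636 passed, and 0 without the 6 h arrays, where 0 of 16426 passed. The median change of the 8 genes was -1.05, but -0.65 with the mean of probe sets. Signs turned for values near 0. The Cyp51 change at 12 h was 0.018, but -0.0021 with the mean, -0.044 with the second set and -0.11 with ribosomal protein genes as the centre. The Idi1 change was -0.052 with that centre, and its difference in change -0.12 with the second set. The Insig1 genotype difference was -0.040 without the 6 h arrays and -0.0065 without the 12 h arrays, where that of Stard4 was -0.049. At 0 h Fdft1 was -0.043 with averaged probe sets and Stard4 0.076 with the second set, and without the 0 h arrays the difference in change was -0.18 for Idi1 and -0.13 for Insig1. Under the alternatives 12 of 280 single-gene values changed sign, but the 280 include values that could not move. The filters left every estimate as it was, and Sqle and Insig1 have 1 probe set each. Leaving out the 6 h arrays cannot alter a change over 12 h. The share is therefore no measure of stability. The causes were not tested. Centring on 46 ribosomal protein genes moved changes at 12 h by -0.13. No paired analysis was possible because the arrays carry no replicate numbers, beyond the time term through which the genotype model already compares arrays of the same time.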
